A study of Homo sapiens with 4 samples.

Results

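CD3D, CD22, CD33, CD44, LCP1 and LEF1 were examined as 6 genes of the lymphoid and myeloid lineages, out of 3200 rows in the deposited table. They were picked by symbol with their values already known, so every level and difference given for them here is a description. RNA of K562, an established human leukaemia line with the BCR-ABL fusion of chronic myeloid leukaemia, was sequenced in 4 libraries. The groups were the imatinib-resistant derivative that the labels call K562/IMR (resistant), K562 cells given vesicles named R-Exo for 48 h, K562 cells given vesicles named S-Exo for 48 h, which the series description names as the control of R-Exo, and K562 cells given none (parental). The names of the vesicles were taken to mean exosomes of resistant (R) and sensitive (S) cells. Imatinib blocks the BCR-ABL kinase, and the labels do not say whether K562/IMR is 1 clone. Each group had 1 library, so the data hold no replicate error and no p-value was computed.

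CD3D, CD22 and CD33 are used to tell blood lineages apart, while CD44 and LCP1 are shared by most leukocytes. CD3D encodes the delta chain of the CD3 complex, which carries the signal of the T-cell receptor. CD22 and CD33 encode siglecs, sialic-acid-binding inhibitory receptors, CD22 on B cells and CD33 on myeloid cells, where it is a drug target in acute myeloid leukaemia. CD44 encodes the hyaluronan receptor of leukocytes and progenitor cells. LCP1 encodes L-plastin, the actin-bundling protein of leukocytes, and LEF1 a DNA-binding partner of beta-catenin in the Wnt pathway that acts in early T and B cells. K562 is itself usually described as erythroid and megakaryocytic in character.

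All values are FPKM, fragments scaled to gene length and to library size, in a table that its name says holds differentially expressed genes. Correlated across the 3200 rows on the log2 (FPKM + 1) scale, R-Exo and resistant had a Pearson's r of 0.974 and S-Exo and parental one of 0.977, while r lay between 0.729 and 0.736 for the other 4 pairs. The R-Exo library was thus much closer to the resistant library than to the S-Exo library over the whole table. ABCB1, the drug efflux pump gene, had 778 FPKM in resistant, 677 in R-Exo, 0.0985 in S-Exo and 0.222 in parental. Whether the R-Exo library is what its label says could not be settled from these values, and this limit holds for each result on R-Exo below. Of 25 erythroid genes listed to check the cell type, 10 were in the table. SLC4A1, which encodes the anion exchanger of red cells, had 7.70 FPKM in resistant, 6.62 in R-Exo, 1.29 in S-Exo and 0.983 in parental. HBZ was abundant in all 4 libraries, with 1101, 1253, 533 and 480 FPKM in the same order. TFRC went the other way, with 114, 98.6, 214 and 224 FPKM. Genes without a row were not analysed here, which is the case for most lineage markers. In these bulk samples more cells of a type and more RNA per cell cannot be told apart.

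Each of the 6 had a higher level in resistant than in parental and in R-Exo than in S-Exo. The level in S-Exo and parental was at most 1.66 FPKM for every one of them, and the level in resistant and R-Exo was at least 4.22 FPKM. LCP1 was the most abundant of them in resistant (55.5 FPKM) and R-Exo (56.0 FPKM), where it ranked 68th and 67th of the 3200 rows. In S-Exo and parental the most abundant was CD44.

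**Figure D1:**
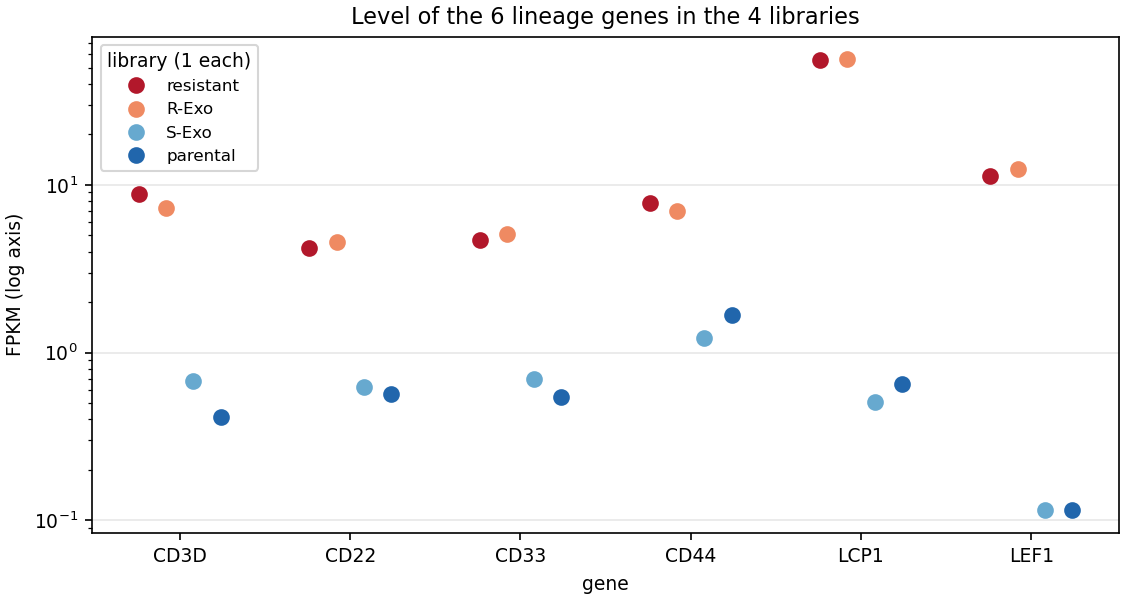
FPKM on a log axis of the 6 lineage genes in each of the 4 libraries, 1 point per library. For every gene the resistant and R-Exo points lie together and above the S-Exo and parental points, from 4.19-fold apart for CD44 to 98.4-fold for LEF1. This order of the libraries held in 48.4% of 2319 rows with at least 1 FPKM in a library.

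Among the T-cell genes, CD3D (ENSG00000167286) lies on the minus strand of chromosome 11 at 118338954 to 118342744 (GRCh38, GENCODE release 29). It had 8.85 FPKM in resistant, 7.27 in R-Exo, 0.677 in S-Exo and 0.410 in parental. Both resistant and R-Exo were above both S-Exo and parental, an order found in 48.4% of 2319 rows with at least 1 FPKM in a library. The level was 21.6-fold higher in resistant than in parental and 10.7-fold higher in R-Exo than in S-Exo. Between the similar libraries it was 1.65-fold higher in S-Exo than in parental, and in R-Exo it was 0.821 times the resistant level. The S-Exo and parental values were under 1 FPKM, where a ratio is least reliable.

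CD22 (ENSG00000012124, chromosome 19, 35319261 to 35347355, plus strand) had 4.22 FPKM in resistant, 4.56 in R-Exo, 0.626 in S-Exo and 0.563 in parental. This was 7.48-fold higher in resistant than in parental and 7.28-fold higher in R-Exo than in S-Exo. The myeloid siglec gene CD33 (ENSG00000105383, chromosome 19, 51225064 to 51243860, plus strand) had 4.71 FPKM in resistant, 5.08 in R-Exo, 0.693 in S-Exo and 0.543 in parental. It was 8.66-fold higher in resistant than in parental and 7.33-fold higher in R-Exo than in S-Exo. A B-cell gene and a myeloid gene thus had nearly the same levels in all 4 libraries, and they were the closest pair among the 6, at a Euclidean distance of 0.19 over the 4 log2 (FPKM + 1) values.

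CD44 (ENSG00000026508, chromosome 11, 35138870 to 35232402, plus strand) had 7.80 FPKM in resistant, 6.97 in R-Exo, 1.22 in S-Exo and 1.66 in parental. It was the only one of the 6 above 1 FPKM in all libraries. It also had the smallest ratio of resistant to parental (4.68-fold) and of R-Exo to S-Exo (5.73-fold). CD44 is spliced into many isoforms, of which 39 transcripts are annotated, and the table gives a single value for the gene.

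LCP1 (ENSG00000136167, chromosome 13, 46125920 to 46211871, minus strand) had 55.5 FPKM in resistant, 56.0 in R-Exo, 0.510 in S-Exo and 0.654 in parental. It was 84.9-fold higher in resistant than in parental and 110-fold higher in R-Exo than in S-Exo. LEF1 (ENSG00000138795, chromosome 4, 108047545 to 108168956, minus strand) had 11.3 FPKM in resistant, 12.4 in R-Exo, 0.115 in S-Exo and 0.115 in parental, the lowest levels of any of the 6 in S-Exo and parental. Its ratio of resistant to parental (98.5-fold) was the largest of the 6, and that of R-Exo to S-Exo was 108-fold. Exons of the antisense gene LEF1-AS1 overlap LEF1 and those of CD44-AS1 overlap CD44. The sources do not state stranded counting, so reads of these partners cannot be told apart. Neither antisense gene has a row in the table.

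The 6 genes were then set among all compared genes, those reaching 1 FPKM in either library, by the difference of log2 (FPKM + 1). A difference of 1 or more was counted as higher or lower, and this scale understates the change of low genes. In resistant against parental, all 6 were counted as higher, beside 28% of 2151 compared genes higher and 18.1% lower. All 6 were again counted as higher in R-Exo against S-Exo, while 23.2% of the 2154 genes compared there were higher and 21.2% lower. The members were chosen on these values, so nothing is read from either count. The differences between resistant and parental ranged from 1.72 for CD44 to 5.09 for LCP1, with a median of 2.35 over the 6 and 0.42 over all compared genes. For R-Exo minus S-Exo they ranged from 1.77 for CD22 to 5.24 for LCP1, with a median of 2.07 over the 6 and 0.21 over all compared genes. LCP1 was the sixth highest gene of both comparisons, while CD44, the lowest of the 6 in resistant against parental, ranked 176th. With every difference re-scaled so that the median over compared genes was 0, 276 genes were higher and 755 lower in resistant against parental, in place of 602 and 390. In R-Exo against S-Exo the re-scaled counts were 331 higher and 678 lower, in place of 499 and 456. The 6 genes were counted as higher on either scale.

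**Figure D2:**
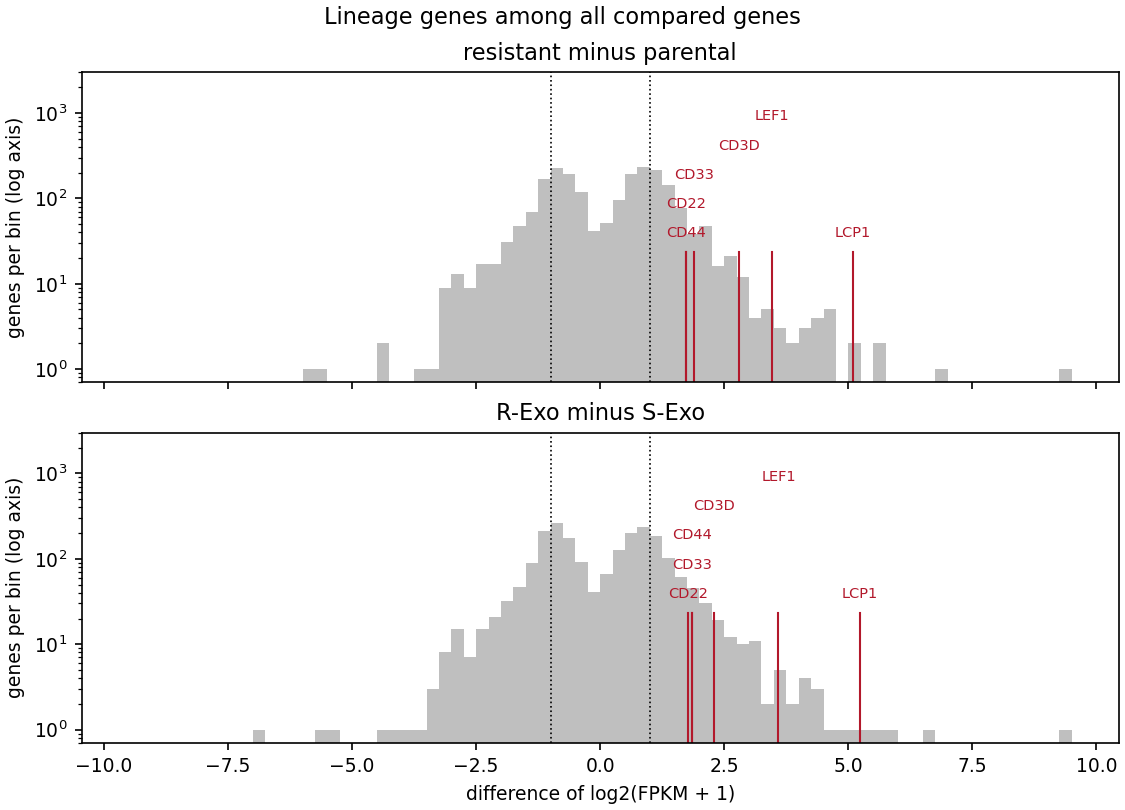
Number of genes (log axis) per bin of the difference of log2 (FPKM + 1), for resistant minus parental (top, 2151 genes) and R-Exo minus S-Exo (bottom, 2154 genes), with the 6 lineage genes as red lines and the limits of -1 and 1 dotted. All 6 lie right of the upper limit in both panels, and LCP1 lies farthest right at 5.09 and 5.24.

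R-Exo compared with parental, which shares its R-Exo library with the comparison above, also gave 6 of 6 counted as higher, from 1.58 for CD44 to 5.11 for LCP1, beside 23.5% of 2115 compared genes higher and 21.5% lower. Between the similar libraries none of the 6 passed the limit. R-Exo against resistant gave differences from -0.25 for CD3D to 0.13 for LEF1, beside 1.6% of 1879 compared genes higher and 1.22% lower. LCP1 in R-Exo was 1.01 times its level in resistant. In S-Exo against parental only CD44 reached 1 FPKM, and its difference was -0.27, beside 1.63% of 1723 compared genes higher and 1.22% lower.

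The split of the libraries into a high and a low pair was common in the table. Of 2319 rows with at least 1 FPKM in a library, 48.4% had both resistant and R-Exo above both S-Exo and parental, as the 6 genes did. In 13.2% of those rows the lower of resistant and R-Exo was at least 4 times the higher of S-Exo and parental, which also held for all 6. This ratio was 4.19 for CD44, 6.73 for CD22, 6.79 for CD33, 10.7 for CD3D, 84.9 for LCP1 and 98.4 for LEF1. The limit of 4 lies just under the ratio of CD44, and the 6 genes were chosen on these values. Nothing is therefore read from all 6 passing it.

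The sequence before the RefSeq start of the genes is shown for CD3D, CD22 and CD33, the T-cell, B-cell and myeloid receptor genes, to set side by side 3 genes that were high in the same libraries. RefSeq (GRCh38.p14) gave a promoter window for all 6. Its start lies inside the GENCODE gene in each case, by 16 bases for CD33, 39 for CD3D and 301 for CD44, but by 2655 for LEF1, 9926 for CD22 and 29694 for LCP1. The windows of LEF1, CD22 and LCP1 therefore lie within the gene spans given above, downstream of other annotated exons. The CD44 window also lies wholly within its gene span, near the start of the gene. The 250 bases before the RefSeq start were searched on both strands for short letters that blood transcription factors prefer. The RUNX factors were given the letters TGTGGT, the ETS factors the letters GAGGAA, the red-cell KLF factors the letters CCACCC, the GATA factors the letters AGATAA, the LEF1 family itself the letters CTTTGA, and the E-box factors the letters CAGCTG. These motifs do not overlap each other in the windows of the 6 genes. Each sequence runs 5′ to 3′ on the strand of its gene and stops before the first annotated exon of the gene inside the window, and capitals mark matches. The CD3D stretch is chr11:118342745-118342955 (minus strand), CD22 is chr19:35328937-35329165 and CD33 is chr19:51224830-51225063 (both plus strand).
CD3D: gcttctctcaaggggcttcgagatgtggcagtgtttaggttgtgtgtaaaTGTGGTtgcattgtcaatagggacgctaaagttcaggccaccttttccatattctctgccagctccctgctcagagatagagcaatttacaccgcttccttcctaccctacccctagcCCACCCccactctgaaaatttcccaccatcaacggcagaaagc
CD22: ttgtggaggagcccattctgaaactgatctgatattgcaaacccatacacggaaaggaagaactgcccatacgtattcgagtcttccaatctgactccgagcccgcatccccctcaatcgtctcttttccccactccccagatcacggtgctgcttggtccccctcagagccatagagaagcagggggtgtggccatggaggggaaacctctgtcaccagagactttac
CD33: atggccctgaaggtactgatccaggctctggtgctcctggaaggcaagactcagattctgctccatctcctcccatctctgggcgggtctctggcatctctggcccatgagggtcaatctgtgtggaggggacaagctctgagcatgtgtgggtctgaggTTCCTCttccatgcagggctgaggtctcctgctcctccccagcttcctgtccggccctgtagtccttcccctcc
Positions are counted from the RefSeq start. In the CD3D stretch TGTGGT begins 200 bases before the start and CCACCC 82 bases before it. The CD33 stretch holds TTCCTC, the reverse complement of GAGGAA, from 90 bases before the start. The CD22 window held none of the 6 motifs. Over the full windows, GAGGAA or its reverse complement was present in 4 of the 6 genes (CD3D, CD33, and LCP1 and LEF1 with windows inside the gene), against 23.6% of 35116 promoter windows. TGTGGT or its reverse complement was present in 3 of the 6 (CD3D, LCP1 and LEF1), against 11% of windows, and CCACCC in CD3D alone, against 31.3%. The GATA letters were in none of the 6, against 9.17% of windows, nor were those of the LEF1 family, against 11.2%, or of the E-box, against 14% of windows. Matches of so few letters occur widely and are given as a description.

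Other genes of the same lineages and pathways were taken from lists, with the 6 genes themselves left out of the counts. Each count can be set beside the shares over all compared genes, 28% higher and 18.1% lower in resistant against parental. In R-Exo against S-Exo these shares were 23.2% and 21.2%. The erythroid list, which stands for the usual character of K562, was also higher in the libraries where the 6 were high. Of its 10 compared genes, 8 were higher and 0 lower in resistant against parental, with a median of 2.11 against 0.42 for all compared genes, and 7 higher and 1 lower after re-scaling. In R-Exo against S-Exo 8 were higher and 1 lower, with a median of 1.91 against 0.21. CA2, a carbonic anhydrase gene, had 25.2 FPKM in resistant, 20.3 in R-Exo, 0.160 in S-Exo and 0.0881 in parental. TFRC, the transferrin receptor gene, went the other way, with 114 FPKM in resistant, 98.6 in R-Exo, 214 in S-Exo and 224 in parental. Summed over the 10 genes the level was 1583 FPKM in resistant, 1702 in R-Exo, 819 in S-Exo and 779 in parental. HBZ alone made up most of this sum, with 1101 FPKM in resistant, 1253 in R-Exo, 533 in S-Exo and 480 in parental. After re-scaling HBZ was no longer counted as higher in resistant against parental. The part of the erythroid shift in the levels of the 6 was not tested.

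Of 36 T-cell genes 4 were in the table, and besides CD3D and LEF1 the only compared one was CCR7, the lymph-node homing receptor gene. CCR7 had 2.95 FPKM in resistant, 2.28 in R-Exo, 0.594 in S-Exo and 0.246 in parental, and was counted as higher in both main comparisons, though not in R-Exo against S-Exo after re-scaling. GATA3, a T-cell transcription factor gene, had at most 0.373 FPKM in any library. The genes of the other CD3 chains, CD3E and CD3G, had no row. Of 33 B-cell genes 4 were in the table, and apart from CD22 none (CR2, POU2F2 and SPIB) reached 1 FPKM in any library. Of 41 myeloid genes 3 were in the table, and AZU1 and ITGAM, the ones beside CD33, stayed under 1 FPKM in every library. The 18 genes of natural killer and cytotoxic cells had a single row, PRF1, the perforin gene, at 0.175 FPKM in resistant, 0.193 in R-Exo, 0.559 in S-Exo and 0.518 in parental. Of 19 genes of stroma, endothelium and epithelium 3 were in the table and the only one compared, ACTA2, was lower (0.0365 FPKM in resistant and listed at 0 in R-Exo, against 4.42 in S-Exo and 3.73 in parental). COL1A2 was listed at 0 in S-Exo and parental. The high levels of CD3D, CD22 and CD33 in resistant and R-Exo therefore stood beside few other listed markers of their lineages, most of which had no row.

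Genes shared by most leukocytes went both ways. Of 30 in that list, 9 were in the table, and of the 7 other than CD44 and LCP1, 2 were higher and 3 lower in both main comparisons. Their median difference in resistant against parental was -0.77, against 0.42 for all compared genes, and in R-Exo against S-Exo it was -0.95, against 0.21. ARHGDIB, which encodes a small-GTPase regulator of blood cells, had 25.6 FPKM in resistant, 28.1 in R-Exo, 5.77 in S-Exo and 5.04 in parental. TNFAIP8L2, an immune regulator gene, had 2.69 FPKM in resistant, 1.32 in R-Exo, 0.0724 in S-Exo and 0.105 in parental, and after re-scaling it was no longer counted in R-Exo against S-Exo, while IKZF1 was then counted as lower in both. The lower genes were SELPLG, LAPTM5 and CD53. LAPTM5, a lysosomal membrane protein gene of blood cells, had 98.7 FPKM in resistant, 95.4 in R-Exo, 355 in S-Exo and 354 in parental. SELPLG, which encodes the P-selectin ligand, had 1.21 FPKM in resistant, 0.959 in R-Exo, 10.1 in S-Exo and 8.27 in parental. The tetraspanin gene CD53 was 2.78-fold lower in resistant than in parental and 3.36-fold lower in R-Exo than in S-Exo. The high LCP1 and CD44 levels were thus not shared by this list as a whole.

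Partners of the siglecs and of CD3 signal through kinases and adaptors. Of 15 siglec genes, 4 were in the table: CD22, CD33, MAG and SIGLEC10. MAG, a siglec of myelin whose gene starts 27.1 kb from that of CD22, had 2.09 FPKM in resistant, 1.80 in R-Exo, 0.561 in S-Exo and 0.309 in parental. It was counted as higher in resistant (1.24) but not in R-Exo (0.84), nor in resistant after re-scaling. SIGLEC10 stayed at or below 0.508 FPKM. In the list of 33 signalling genes of such receptors, 3 were in the table, with 1 higher and 1 lower in resistant against parental and 0 higher and 1 lower in R-Exo against S-Exo. SYK, the kinase that binds phosphorylated receptor tails, was listed at 0 in resistant and R-Exo, against 4.33 FPKM in S-Exo and 5.12 in parental. PLCG2, a phospholipase gene of B-cell signalling, had 3.61 FPKM in resistant, 1.91 in R-Exo, 0.987 in S-Exo and 0.874 in parental, and was counted as higher only in resistant and not after re-scaling. VAV2, an exchange factor gene for small GTPases, differed by 0.90 between resistant and parental and by 0.60 between R-Exo and S-Exo.

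For CD44, 5 of 24 genes of hyaluronan binding and synthesis were in the table. HAPLN3, a hyaluronan link protein gene, had 2.0 FPKM in resistant, 1.12 in R-Exo, 0.178 in S-Exo and 0.151 in parental. It was counted as higher in resistant (1.38), though not after re-scaling, and its difference in R-Exo was 0.85. MMP14, which encodes a membrane protease that can cleave CD44, differed by 0.35 between resistant and parental and by 0.75 between R-Exo and S-Exo.

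For LCP1, 12 of 42 plastin and actin genes were in the table. Of 8 compared beside LCP1, 4 were higher and 1 lower in resistant against parental. Their median was 0.97, against 0.42 for all compared genes. In R-Exo against S-Exo 5 of 9 were higher and 1 lower, with a median of 1.01 against 0.21. After re-scaling these became 2 higher and 2 lower, and 3 higher and 2 lower. The higher ones in resistant were ARHGDIB, ESPN, FMNL2 and ACTN2. ESPN, an actin-bundling protein gene like LCP1, had 5.74 FPKM in resistant, 4.55 in R-Exo, 2.45 in S-Exo and 1.46 in parental. FMNL2, a formin gene, had 1.95 FPKM in resistant, 1.80 in R-Exo, 0.144 in S-Exo and 0.141 in parental. PLS1, a plastin gene of intestine and the close relative of LCP1, went the other way, with 5.14 FPKM in resistant, 4.47 in R-Exo, 9.88 in S-Exo and 9.98 in parental. Its difference was -0.84 in resistant against parental and -0.99 in R-Exo against S-Exo, just within the limit, and after re-scaling it was counted as lower in both (-1.26 and -1.21). It was also lower in R-Exo against parental, at -1.01. CAPG, an actin-capping protein gene of macrophages, had 4.01 FPKM in resistant, 3.41 in R-Exo, 14.7 in S-Exo and 19.3 in parental.

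For LEF1, 13 of 78 genes of the Wnt pathway were in the table. Of 7 compared beside LEF1, 4 were higher and 2 lower in resistant against parental (median 1.09, against 0.42 for all compared genes). In R-Exo against S-Exo 1 was higher and 2 lower (median 0.43, against 0.21). After re-scaling 0 were higher and 2 lower in both comparisons, and 2 were higher in resistant after quantile normalization. TCF7L2, a gene of the same factor family as LEF1, had 2.88 FPKM in resistant, 1.5 in R-Exo, 0.852 in S-Exo and 0.542 in parental. The other higher ones in resistant were FZD1, TLE4 and NOTUM, the last named after its value was seen. NOTUM, a secreted Wnt inhibitor gene, had 3.01 FPKM in resistant against 0.887 in parental. The lower ones were the Wnt receptor gene FZD4 and the co-repressor gene TLE2, whose product can bind LEF1. FZD4 had 1.86 FPKM in resistant, 1.20 in R-Exo, 7.39 in S-Exo and 7.47 in parental. TLE2 had 0.873 FPKM in resistant, 0.676 in R-Exo, 5.20 in S-Exo and 3.62 in parental, while its relative TLE4 had 2.58, 2.17, 0.918 and 0.679 FPKM in the same order.

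**Figure D3:**
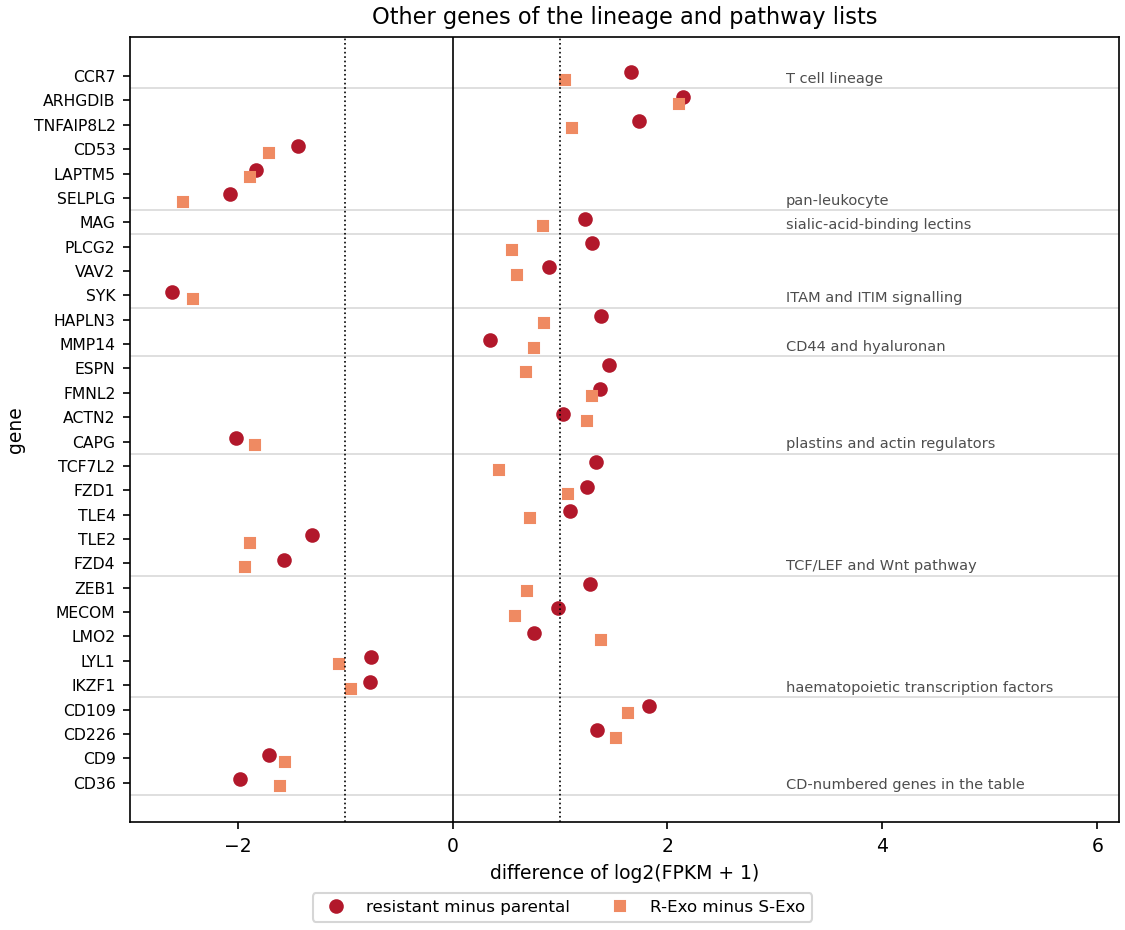
Difference of log2 (FPKM + 1) for the genes named from the lists, up to 5 per list, without the 6 lineage genes; circles give resistant minus parental, squares R-Exo minus S-Exo, and dotted lines mark -1 and 1. Genes lie on both sides of 0, from SYK at -2.61 to ARHGDIB at 2.14 in resistant minus parental.

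Among 50 transcription factor genes of blood lineages, 10 were in the table and 5 were compared, of which 1 was higher and 0 lower in resistant against parental and 1 was higher and 1 lower in R-Exo against S-Exo. ZEB1, a transcriptional repressor gene, was the higher one in resistant (4.51 against 1.27 FPKM), though not after re-scaling. LMO2, a T-cell leukaemia gene that acts in blood stem and red cells, was the higher one in R-Exo (29.7 FPKM against 10.8 in S-Exo). LYL1, another such gene, was lower in R-Exo (38.4 FPKM against 81.1 in S-Exo). IKZF1, the gene of the lymphoid factor Ikaros, had 11.3 FPKM in resistant, 9.66 in R-Exo, 19.5 in S-Exo and 19.9 in parental, a difference of -0.77 in resistant and -0.95 in R-Exo. After re-scaling 0 were higher and 2 lower in resistant against parental, the lower ones being IKZF1 and LYL1 (-0.76 before re-scaling), and 1 was higher and 2 lower in R-Exo against S-Exo.

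The genes most like each of the 6 were ranked by Euclidean distance over the 4 log2 (FPKM + 1) values, which weighs level and difference together and spans 4 libraries. For CD3D the closest were PAK6 (0.31), CSRP1 (0.34) and FERMT2 (0.49). For CD22 they were PASD1 (0.15), CD33 (0.19) and DTNA (0.35), and the 3 closest to CD33 were CD22 (0.19), DTNA (0.23) and PASD1 (0.26). BRSK1 (0.20), MYO6 (0.32) and ELOVL7 (0.39) were closest to CD44. PASD1 had 4.10 FPKM in resistant, 4.42 in R-Exo, 0.764 in S-Exo and 0.654 in parental. LCP1 stood farther from any other gene, with SSX1 (0.59) closest and TMEM243 at 1.19. LEF1 was closest to AC104109.3 (0.23), SH3GL3 (0.24) and FERMT2 (0.62). SH3GL3 had 12.7 FPKM in resistant, 14.1 in R-Exo, 0.0643 in S-Exo and 0.105 in parental. None of the genes named here as similar, besides CD22 and CD33, is in the T-cell, B-cell or myeloid list. Apart from the 6, CCR7 was the only gene of those lists that reached 1 FPKM and could be ranked. This absence was therefore nearly fixed in advance, and nothing is read from it.

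Rows whose gene starts within 1000 kb of the start of each of the 6 were compared to see whether whole regions were higher. Around CD3D, 6 rows were listed and compared, of which 0 were higher and 5 lower in resistant against parental. Its nearest listed neighbours were IL10RA, the interleukin-10 receptor gene (0.0393 FPKM in resistant against 1.47 in parental), and TRAPPC4 (48.7 against 104 FPKM). Around LCP1 the listed neighbours were SLC25A30 (2.93 against 8.44 FPKM) and ESD (91.8 against 184 FPKM), of which SLC25A30 passed the limit. CD44 had 1 listed neighbour, ABTB2, which stayed under 1 FPKM. CD22 had 8, of which 1, MAG, was higher among 4 compared, and IGFLR1 was the nearest on the other side (2.75 against 3.74 FPKM). CD33 had 9, of which 6 were compared and ZNF615 was lower (1.02 against 3.25 FPKM), and SHANK1 and SIGLEC10, the nearest, stayed under 1 FPKM. LEF1 had 1, PAPSS1, which encodes a sulfate-donor synthase and starts 449 kb away, with 15.2 FPKM in resistant, 12.6 in R-Exo, 0.694 in S-Exo and 0.560 in parental. Between 8 and 73 other coding genes are annotated in each of these windows, so most neighbours had no row.

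**Figure D4:**
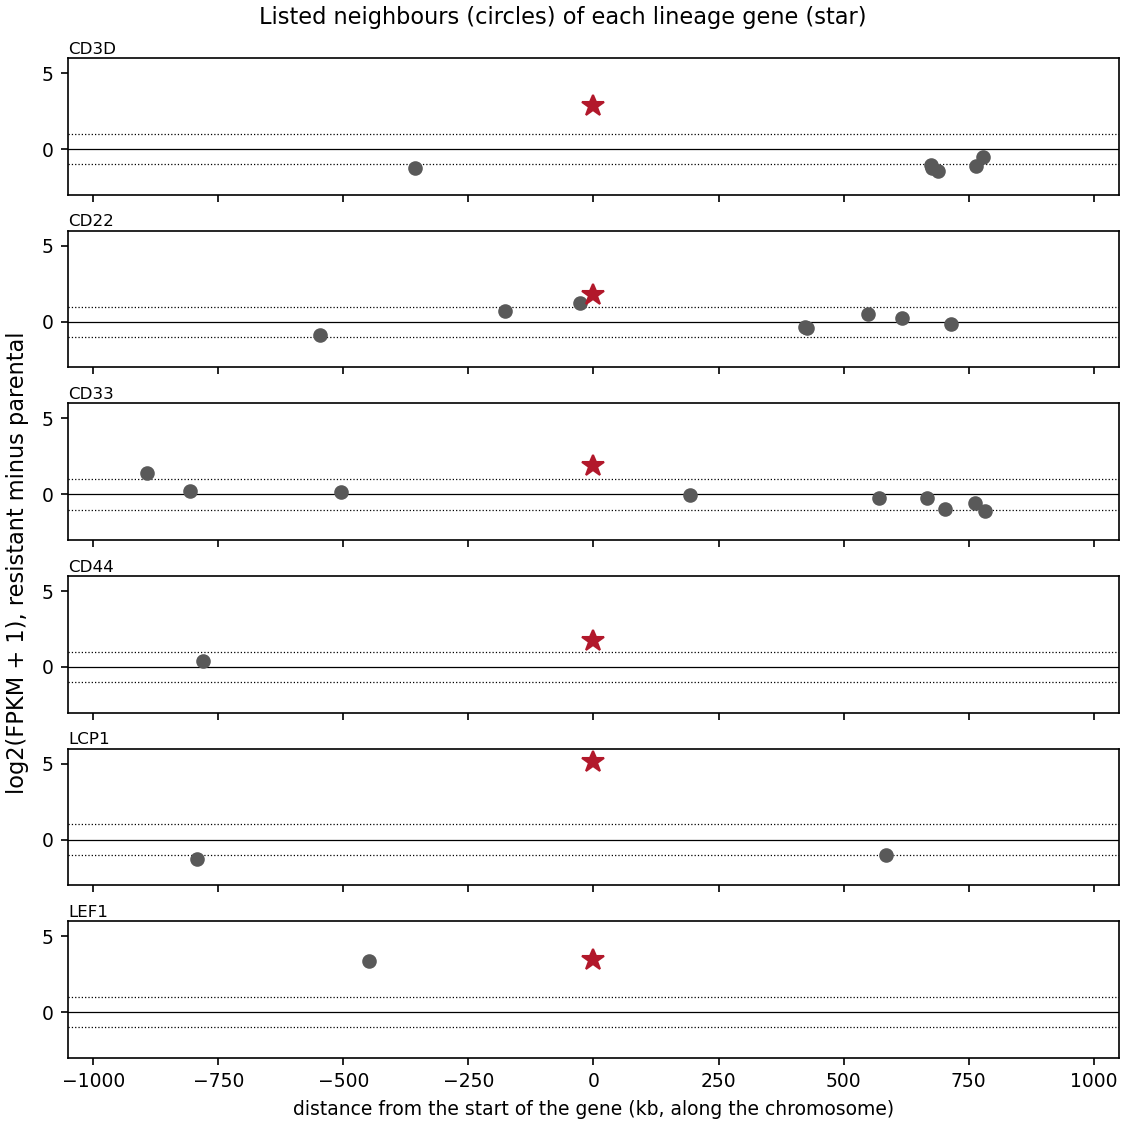
Difference of log2 (FPKM + 1), resistant minus parental, of each of the 6 genes (star) and of the listed genes whose start lies within 1000 kb (circles), against distance from the start in kb; dotted lines mark -1 and 1. The neighbours of CD3D and LCP1 lie below 0, and PAPSS1 beside LEF1 lies at 3.38.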

How the data were processed

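Poly-A RNA libraries were made from 1 µg of RNA with fragments of about 240 bp preferred, per the labels' protocols, in 4 samples with 1 library each. The authors deposited 1 table of FPKM values, the unit being given by its name. The submitters' processing notes name TopHat2, Picard, GATK and SAMtools 0.1.18, with no role for any. The build, the annotation, the counting tool and the rule of selection were not given in the sources used here. Depth is unknown. An Ensembl identifier was present in 2288 rows, all found in GENCODE release 29 (GRCh38), and 912 have a running number. Differences were taken on log2 (FPKM + 1) for genes that reached 1 FPKM in either library and counted at 1 or more (Python 3.11.15, pandas 2.3.3, NumPy 2.4.6), with functions tested on simulated data. No test was possible with 1 library per group. The text names the 6 genes, up to 5 other genes per list with the largest difference in resistant against parental, the 3 most similar genes and the nearest listed neighbours; other names, and the promoter motifs, were chosen after values were seen. Some genes that this rule names are left out. The members and lists were chosen with earlier results of these data known. Settings varied were the filter (none, or 5 FPKM), the pseudocount (0.1), the scaling (median difference set to 0, or quantile normalization) and the control of R-Exo (parental).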

Additional observations from a re-analysis of the deposited data

How the results depend on the processing

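Each of the 6 genes kept its direction and stayed past the limit in all 3 comparisons of resistant or R-Exo with S-Exo or parental. This held in 92 of 92 values under the alternatives, but many of these could not have failed. A change of filter leaves a difference as it was, and a smaller pseudocount only widens it for these genes. Parental as the control of R-Exo repeats values already counted. Only re-scaling and quantile normalization could have brought a gene back within the limit. The difference of CD44 in resistant against parental ranged from 1.30 to 2.16 and that of LEF1 from 3.04 to 5.73, the highest with a pseudocount of 0.1. With a minimum of 5 FPKM, CD22 and CD33 were not compared in resistant against parental, which left 4 of 4 higher, and CD22 was not compared in R-Exo against S-Exo, which left 5 of 5. Over all genes in resistant against parental, 908 were higher and 608 lower with a pseudocount of 0.1, and 317 and 211 with a minimum of 5 FPKM. In R-Exo against S-Exo these counts were 776 and 758, and 254 and 246. After quantile normalization the higher share of counted genes in resistant against parental was 45.2%, in place of 60.7%. Of 56 counts of higher or lower genes within the lists in the 2 main comparisons, 19 moved by over 1.5 times or to or from 0 with a minimum of 5 FPKM, 16 with re-scaling, 8 with a pseudocount of 0.1 and 5 after quantile normalization. With a minimum of 5 FPKM in resistant against parental, no T-cell gene other than the 6 was compared, 1 Wnt gene was compared and lower, 0 of 4 transcription factor genes were higher or lower, 2 of 4 plastin and actin genes were higher and 1 lower, and of 4 genes with CD numbers 1 was higher and 2 lower. No paired analysis was possible because each group had 1 library and the labels carry no shared replicate numbers. The missing replicates and the unknown depth limit every value, most of all those under 1 FPKM.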

Other observations

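The table held 16 genes whose symbol is CD followed by a number, 12 of them besides CD3D, CD22, CD33 and CD44. Of 9 compared in resistant against parental, 3 were higher and 4 lower. Their median difference was -0.92, against 0.42 for all compared genes. Of 8 in R-Exo against S-Exo 2 were higher and 3 lower, with a median of -0.68 against 0.21. CD109, which encodes a TGF-beta co-receptor, had 2.83 FPKM in resistant, 2.19 in R-Exo, 0.0266 in S-Exo and 0.0763 in parental. CD226, an activating receptor gene of T and natural killer cells, had 1.78 FPKM in resistant, 2.15 in R-Exo, 0.0993 in S-Exo and 0.0948 in parental. CD36, a scavenger receptor gene, had 8.45 FPKM in resistant, 9.60 in R-Exo, 31.2 in S-Exo and 36.2 in parental, and CD9, a tetraspanin gene, had 0.267, 0.336, 2.94 and 3.13 FPKM in the same order. CD59, named after its value was seen, had 19.5 FPKM in resistant against 8.65 in parental. After re-scaling 1 of the 9 was higher and 5 were lower in resistant against parental.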
